A study of Caenorhabditis elegans with 24 samples.

Results

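RNA-seq libraries of RAGA-1::AID Somatic animals kept on auxin were compared with those of wild type animals kept on auxin, which makes 8 of the 24 libraries of the study, 4 a side. The libraries were taken by their strain and treatment labels, and 13150 of the 21982 genes in the table, those reaching 10 normalized counts in 4 or more of the 24, were tested. A normalized count is a gene's read count divided by a size factor of its library. The AID animals (strain WBM1438) carry the allele raga-1(wbm40) [raga-1::AID::EmGFP], in which endogenous *raga-1* ends in a degron and a GFP, together with the insertion ieSi57 on chromosome II, in which the eft-3 promoter drives TIR1::mRuby with the *unc-54* 3'UTR, and which also carries Cbr-unc-119(+). Wild type animals were N2 Bristol and carry neither. All animals of both groups were raised at 20 °C on HT115 bacteria, moved at day 1 of adulthood to plates with 0.15 mM auxin and harvested whole at day 3, about 400 worms to a sample. Replicates were grown from separate thaws on separate days, and RNA was extracted from 2 replicates at a time, without a record of which.

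The comparison therefore holds the drug constant and lets the strain differ. The eft-3 promoter drives TIR1 in somatic tissues and not in the germline, so RAGA-1 of the germline is not a direct target. The strain also differs from N2 by the tag on *raga-1*, the TIR1 transgene and the *unc-119* gene of another Caenorhabditis species that marks it, and it descends from crosses. Those differences are present with or without auxin, and the same contrast in 8 further libraries without auxin is given below for each gene that turns on it. The paper also reports a reduced GFP signal of tagged RAGA-1 in this strain without auxin, which it reads as a low level of degradation. In the contrast without auxin, partial loss of RAGA-1 and the other strain differences therefore cannot be told apart. In whole worms, fewer cells of a type and less RNA per cell cannot be told apart.

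mTORC1 is a kinase complex that promotes growth, translation and storage when amino acids are plentiful and restrains breakdown by autophagy and the lysosome. RAGA-1 is the worm RagA, a small GTPase that brings mTORC1 to the lysosome and activates it, and *let-363* encodes the kinase itself. With auxin, the plant protein TIR1 marks proteins that carry the degron for the proteasome, so RAGA-1 is removed as protein and its mRNA is no direct measure of the depletion. In adult hermaphrodites the intestine makes yolk, the gonad takes it up into oocytes, and embryos held in the mother add their own transcripts to those of her tissues.

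Recovered depth was 20732793 to 27611620 reads in the 4 somatic AID libraries and 30892897 to 32582050 in the 4 wild type libraries, so the groups differed in depth without overlap. With reads of every library thinned to the same total, edgeR's quasi-likelihood test called 3842 genes, against 4511 without thinning. The share of counts held by the 10 leading genes was 21.6 to 25.04% in somatic AID and 13.7 to 16.13% in wild type, and the 6 vitellogenin genes alone took 16.8 to 18.4% and 10.3 to 12.2%. Without auxin the vitellogenin share was 9.90 to 11.398% in RAGA-1::AID Somatic and 10.1 to 12.04% in wild type. Of the markers of other sources, 22 of 48 sperm genes were at 0 in all 8 libraries, and markers of the germline, muscle, intestine, pharynx, hypodermis and neurons were all present.

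*raga-1* mRNA was lower in the AID strain on auxin, and it was also lower without auxin. On auxin it measured 1478, 1628, 1412 and 1457 normalized counts in somatic AID and 2777, 2871, 2798 and 2921 in wild type. All 4 somatic AID libraries lay below all 4 wild type libraries, with a log2 fold change of -0.93 (SE 0.04, limma adjusted p = 6.9e-13). Fold changes here and below are differences of log2(normalized count + 1), which understate the change of low genes. The gap was already -0.75 without auxin (limma adjusted p = 1.5e-10), where the AID strain measured 1646 to 1741 and wild type 2673 to 3025. The difference between the 2 gaps was -0.18 and did not pass the threshold of 0.01 (limma interaction, adjusted p = 0.027).

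The other genes of the mTORC1 pathway that passed the test were all lower, by small amounts. Over all genes, 34.3% were called at an adjusted p of 0.01 or less, 14.9% as higher and 19.3% as lower, with a median log2 fold change of 0.01. Of 17 pathway genes tested, *raga-1* included, 9 (52.9%) were lower and 0 higher, with a median of -0.17. The share of lower genes was 42.3% among all tested genes with 1000 to 10000 normalized counts, with a median of -0.09. The ragulator subunit *lmtr-3* averaged 1288 ± 93.3 against 1537 ± 11.8 normalized counts (mean ± SD, n = 4), *mlst-8*, a subunit of both mTOR complexes, 1364 ± 32.9 against 1665 ± 75.0, and *rict-1*, the mTORC2 subunit Rictor, 6123 ± 270.2 against 7224 ± 107. Their log2 fold changes were -0.26, -0.29 and -0.24, and none overlapped between the groups. The kinase gene *let-363* (9875 ± 379 against 9777 ± 358) and *rsks-1*, the S6 kinase (8173 ± 339 against 8396 ± 242), did not pass the test, with differences of 0.01 (SE 0.04) and -0.04 (SE 0.03). In the insulin pathway 6 of 11 genes (54.5%) were lower and 1 higher, with a median of -0.14. Among them, *pdk-1*, a kinase upstream of AKT, was lower by the most of those described, at 862 to 1019 against 1189 to 1386 normalized counts (log2 fold change -0.48), ahead of *akt-1* (-0.13) and *age-1*, the PI3 kinase (-0.17).

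Across the transcriptome, higher genes were scarcer transcripts with larger fold changes, and lower genes were abundant transcripts with small ones. A total of 1964 genes were higher and 2541 lower in somatic AID, with median log2 fold changes of 0.71 and -0.20. Higher genes had a median of 214 normalized counts over the 8 libraries and lower genes 2244, against 348 for all genes tested. Of genes under 100 normalized counts 14.2% were higher and 2.30% lower, whereas of genes between 1000 and 10000 counts 8.73% were higher and 42.3% lower. A gene that is scarce elsewhere can pass the filter through the 4 libraries of the group where it is high. The filter may therefore raise the share of higher genes among scarce ones, and its part in this pattern was not tested. A change of 2-fold or more was called for 506 higher genes (3.85% of those tested) and 64 lower genes (0.487%), and a change of 4-fold or more for 83 and 8. The 4 libraries of one group lay wholly outside the 4 of the other for 5315 genes (40.4%), among them 4157 of the 4505 genes called. The share of higher genes among the calls was 43.6%, and 34.6% (1329 higher, 2510 lower) after quantile normalization, which forces the same set of values on every library.

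**Figure D1:**
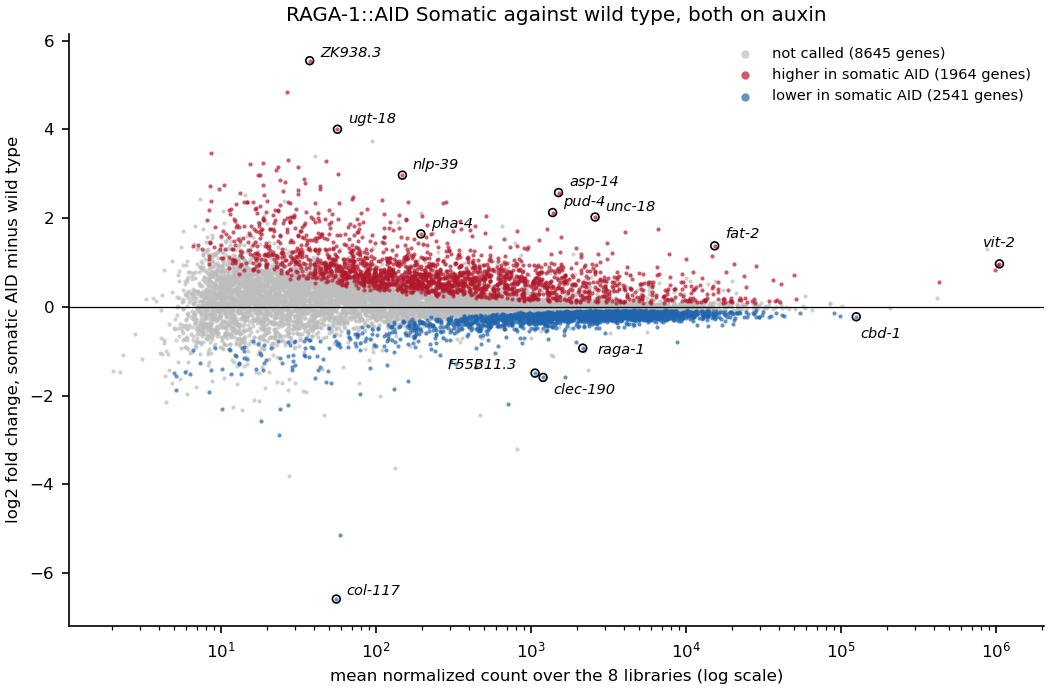
Log2 fold change of somatic AID minus wild type, both on auxin, against the mean normalized count over the 8 libraries (log axis), with 1 point for each of the 13150 genes tested. The 1964 higher genes (red) spread to the upper left at low counts, the 2541 lower genes (blue) hug the zero line at high counts, and named genes are circled.

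Pairs of replicates gave fewer calls. Replicates 1 and 4 of all groups alone gave 2811 calls, and replicates 2 and 3 alone gave 1440. Of the 4505 genes called with all replicates, 2546 and 1389 were called in these pairs, and 0 of the 4505 changed sign in either. Leaving out any 1 of the 8 libraries gave 3766 to 4355 calls.

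Among genes that averaged 50 normalized counts or more, the largest rises were led by *ugt-18*, a UDP-glucuronosyltransferase of the detoxification family. It measured 129, 118, 72.5 and 111 normalized counts in somatic AID and 4.24, 5.42, 9.94 and 4.23 in wild type, a log2 fold change of 4.00 (SE 0.33, limma adjusted p = 4.1e-09). Next came *sri-40*, a predicted chemoreceptor (58.2 to 136 against 6.19 to 16.6, log2 fold change 2.99), and the neuropeptide gene *nlp-39*. *nlp-39* measured 191, 366, 234 and 269 against 27.1, 37.2, 36.4 and 28.8, a log2 fold change of 2.97 (SE 0.34, limma adjusted p = 5.6e-07). In none of these 3 did a somatic AID library come within the wild type range.

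At far higher abundance, *asp-14*, an aspartyl protease, measured 1943, 2461, 3216 and 2715 in somatic AID and 269, 478, 586 and 435 in wild type, for a log2 fold change of 2.58 (SE 0.29, limma adjusted p = 3.6e-07). Even the lowest somatic AID library was several times the highest wild type library. The C-type lectin gene *clec-196* averaged 122 ± 37.2 against 21.3 ± 7.37, with 1 somatic AID library at 177 and the other 3 at 99.6 to 106. *arrd-1*, an arrestin domain gene (273 ± 75.1 against 52.0 ± 10.71), *cpt-4*, a carnitine palmitoyltransferase of fatty acid import into mitochondria (144 ± 17.2 against 30.996 ± 7.70), and *drd-10* (480.3 ± 226 against 87.2 ± 26.97) had log2 fold changes of 2.36, 2.21 and 2.36. The F-box gene *fbxb-41* stood at 132 ± 38.4 against 29.2 ± 5.46. Genes without a common name in this set of 15 were *Y67H2A.9* (2.43), *Y17G9A.4* (2.40), *F44F1.6* (2.35), *C29F7.2* (2.34) and *F48E3.6* (2.09), all log2 fold changes. *F44F1.6* was uneven within its group, at 144, 44.7, 51.5 and 158 against 11.6 to 23.998 in wild type.

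The largest falls were fewer and partly rest on genes that vary among wild type libraries. *col-117*, a cuticle collagen, was at 0 in all 4 somatic AID libraries on auxin and at 143, 98.3, 171 and 33.01 in wild type, at least 31.04-fold lower when 3 reads per library are allowed for a count of 0. It was also at 0 in all 4 libraries of the strain without auxin, and there 2 wild type libraries were at 0 and the others at 62.1 and 98.8. Near-identical collagen genes may share its reads, and edgeR gave an adjusted p of 0.015 for it. *nspc-5*, a nematode specific peptide gene with near-identical copies, measured 6.97, 0, 11.6 and 0 against 83.0 to 135. *cls-3*, a CLASP gene of microtubule regulation, measured 735 to 764 in somatic AID and 852, 3559, 2745 and 3138 in wild type, so its wild type spread was carried by 1 library. Without auxin the wild type library of the same number was again low, at 826 against 3138 to 3549 in the others, while the AID strain had 766 to 896 there. *dhs-26*, a short chain dehydrogenase gene, measured 80.7, 611, 556 and 97.1 against 706 to 1647, and its call was lost without somatic AID replicate 1 or without replicate 4 (limma adjusted p = 0.011 in either case).

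Other falls were even across libraries. *F55B11.3* (chromosome IV, 14424696 to 14425569 on WBcel235) measured 561, 694, 572 and 434 in somatic AID and 1581, 1532, 1564 and 1601 in wild type, a log2 fold change of -1.49 (SE 0.09, limma adjusted p = 2.9e-11). The C-type lectin gene *clec-190* measured 672, 658, 641 and 449 against 1754 to 1904, a log2 fold change of -1.59 (SE 0.10, limma adjusted p = 1.4e-10). Both had wild type libraries within a narrow band and no somatic AID library near it. *T12B5.15* averaged 77.4 ± 10.703 against 248 ± 30.1, *M199.9* 32.8 ± 9.97 against 126 ± 14.4, *rgs-1*, a regulator of G protein signalling, 50.7 ± 5.66 against 133 ± 14.8, *nas-20*, an astacin protease, 256 ± 87.9 against 636 ± 98.6, and *clec-145* had a log2 fold change of -1.31. The cytochrome P450 gene *cyp-35A3* was at 34.7 to 82.0 against 94.0 to 338, and *fer-1*, the sperm ferlin, at 10.96 to 51.5 against 63.5 to 96.0.

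**Figure D2:**
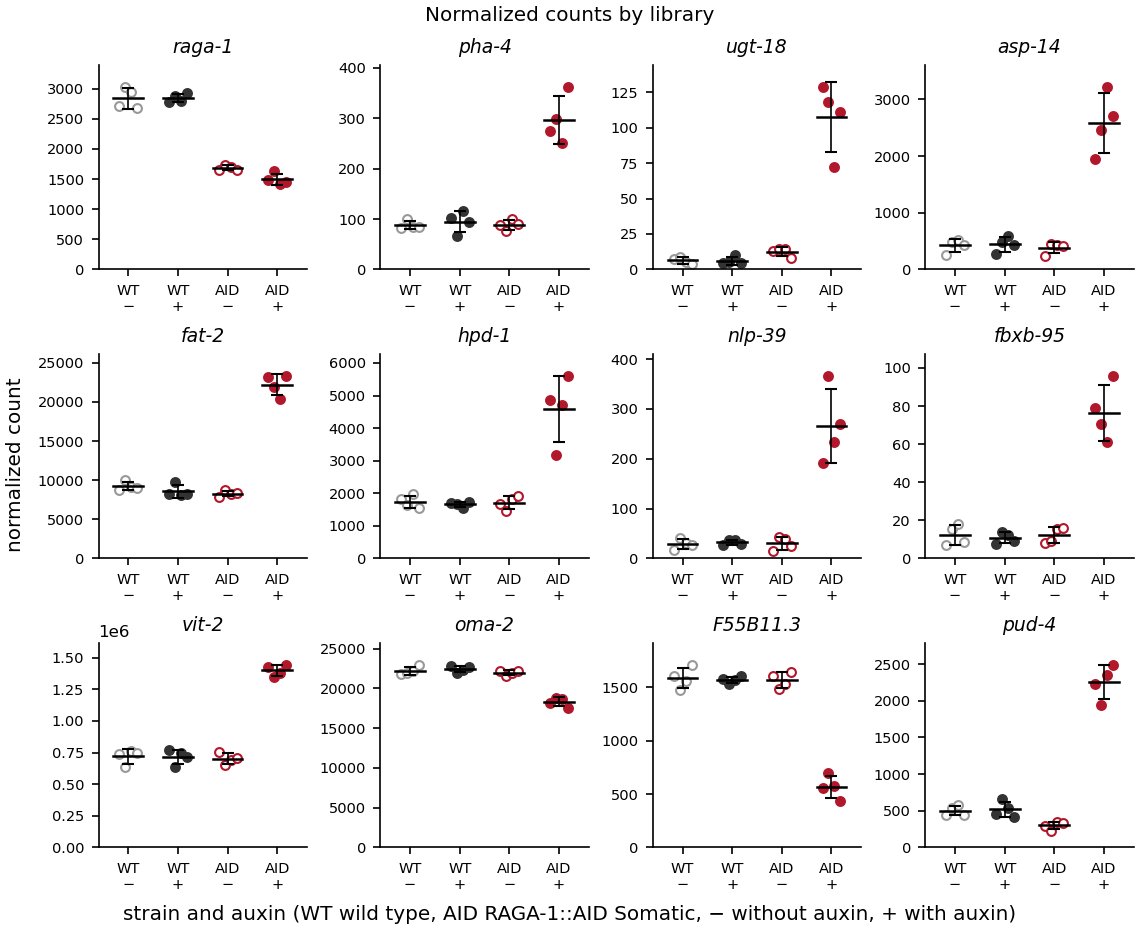
Normalized counts of 12 genes in wild type (WT, grey) and RAGA-1::AID Somatic (AID, red) libraries without auxin (open circles) and with auxin (filled circles), 4 libraries a group, with the mean as a black bar and the SD as an error bar, on axes that start at 0. The somatic AID libraries on auxin stand apart from the other 12 libraries for every gene shown. For raga-1 the gap is narrow, as the strain without auxin was at 1646 to 1741 already. The smallest of the differences drawn is that of oma-2, lower by 0.29 on the log2 scale.

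Most of the F-box B genes tested were higher. Most F-box proteins are adaptors that bring substrates to SCF ubiquitin ligases, the same kind of complex that TIR1 joins, and worms have expanded several families of them. Among the F-box B genes, 87 passed the filter and were tested, and 73 of these were higher and 0 lower, 69 of them by 2-fold or more, with a median log2 fold change of 1.70 and a range of 0.24 to 3.32. Because these genes are scarce in wild type, at a median of 9.17 normalized counts against 36.3 in somatic AID, some passed the filter through the group in which they are high, and the other 17 members, under the filter, were not tested. Summed over the tested and the untested members, the counts were 3042 to 4849 in somatic AID and 1220 to 1420 in wild type. In the single libraries the median of the list lay 1.37 to 1.95 above the wild type mean in somatic AID, and between -0.07 and 0.18 in wild type.

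The family lies mostly on chromosome II, where 46 of 52 tested members were higher, but 12 of 13 on chromosome V and 5 of 9 on chromosome I were too. *fbxb-95* measured 78.7, 70.4, 61.0 and 95.7 against 7.62, 13.9, 12.4 and 9.31, a log2 fold change of 2.73 (SE 0.27, limma adjusted p = 6.0e-08). *fbxb-51* was at 29.8 to 49.9 against 2.54 to 4.64, and *fbxb-54* at 94.6 to 172 against 24.5 to 41.03. For *fbxb-57*, with 98 reads against 10 over the 4 libraries of each group, the ratio was 13.95 (95% exact interval 7.27 to 30.01, counting error only). Members are close copies of each other, so reads may be shared between them. Without auxin the median of the list was -0.14 and 0 members were called in either direction. The number of members called ranged from 18 with replicates 2 and 3 alone to 76, and the median from 1.36 to 2.01, over the alternative settings.

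Other adaptor families held smaller shares of higher genes. F-box C genes, a family counted after its values were seen, were higher for 13 of 32 tested and lower for 3, with a median of 0.72. Of 98 F-box A genes tested of 170, 13 (13.3%) were higher and 7 (7.14%) lower, against 14.9% and 19.3% of all genes tested. Their median of 0.28 turned to -0.03 after quantile normalization. Of 52 MATH and BATH genes tested of 73, 10 (19.2%) were higher and 5 (9.62%) lower, with a median of 0.12 that turned to -0.08 in the same way. The median of all tested genes under 100 normalized counts was 0.30. *fbxa-24* was higher (211 ± 21.5 against 97.4 ± 8.73, log2 fold change 1.11) and *fbxa-153* lower (227 ± 25.3 against 378 ± 36.6, -0.74). The proteasome, the complex that degrades what such ligases mark, was lower as a list: 24 of 33 subunit genes were lower and 1 higher, with a median of -0.14, and the median lay at -0.16 to -0.12 in the 4 somatic AID libraries against -0.05 to 0.04 in wild type. The lid deubiquitinase gene *rpn-11* averaged 5722 ± 110.3 against 6701 ± 109.7 and the core subunit gene *pas-7* 4529 ± 148 against 5430.4 ± 123, differences of -0.23 and -0.26 on the log2 scale without overlap.

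**Figure D3:**
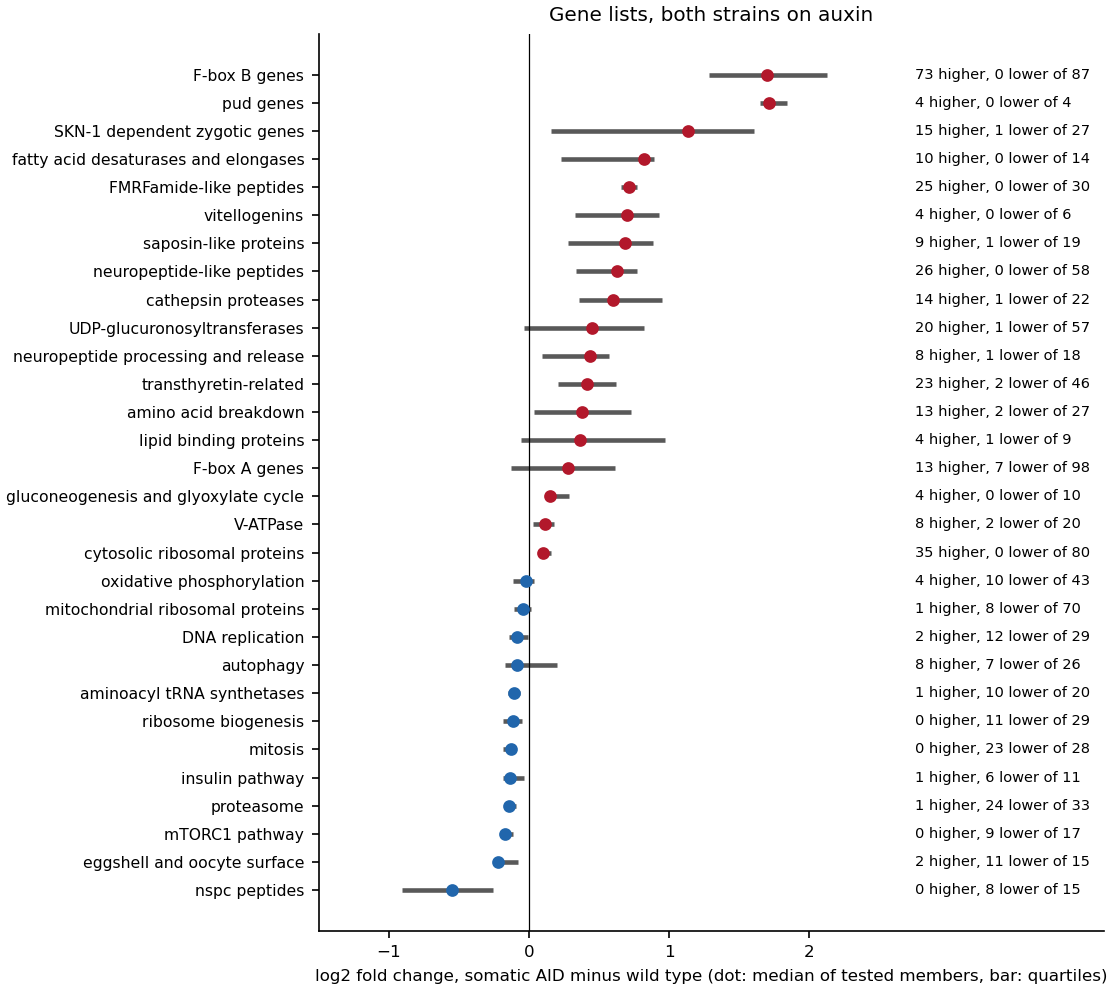
Median log2 fold change (dot, red above 0 and blue below) and quartiles (bar) of the tested members of 30 gene lists, somatic AID minus wild type on auxin, with the numbers of members called higher and lower at the right. F-box B genes (73 of 87 higher) and pud genes lie furthest to the right and nspc peptides furthest to the left, and the proteasome, mitosis and mTORC1 lists lie just left of 0.

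Of the 6 yolk protein genes 4 were higher. Vitellogenins are the yolk proteins that the intestine makes for the oocytes, and their mRNAs are the most abundant of the adult. *vit-2* measured 1425674, 1345756, 1381694 and 1440073 normalized counts in somatic AID and 767942, 638133, 744162 and 713564 in wild type. The groups were far apart and even within themselves, with a log2 fold change of 0.97 (SE 0.06, limma adjusted p = 1.2e-10). *vit-6* (log2 fold change 0.95), *vit-5* (0.84) and *vit-3* (0.55, at 453866 to 599972 against 298293 to 413753) were higher too, and 0 of the 6 genes were lower, with a median of 0.70. After quantile normalization, which sets the top ranks of all libraries equal, the differences of *vit-2*, *vit-6* and *vit-5* came to 0.07, -0.07 and -0.13 and the list median to -0.00. vit genes share near-identical stretches, and reads may be split between them.

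The fatty acid binding protein gene *far-2*, also among the 10 largest gains in counts, measured 60797, 61902, 63318 and 61681 against 39091, 35112, 37659 and 37660.1 (log2 fold change 0.73, SE 0.03, limma adjusted p = 2.0e-13). The vitelline layer genes *perm-2* (29629 ± 809.6 against 18272 ± 778) and *perm-4* (43968 ± 915 against 28899 ± 900.2) were higher by 0.70 and 0.61, and *C39D10.7* was higher by 0.51. The yolk receptor gene *rme-2*, expressed in oocytes, went the other way, at 39507 to 41006 against 45885 to 47143 (log2 fold change -0.21).

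Desaturases and elongases of long fatty acids were higher, while genes of fatty acid synthesis and storage were not, as lists. Of 14 desaturase and elongase genes tested of 16, 10 were higher and 0 lower, with a median of 0.82 (0.59 to 0.87 over the alternative settings). *fat-2*, the delta-12 desaturase of polyunsaturated fatty acid synthesis, measured 23167, 21943, 20421 and 23286 in somatic AID and 8239, 9777, 8043 and 8238 in wild type, a log2 fold change of 1.38 (SE 0.06, limma adjusted p = 3.3e-13). Every somatic AID library had more than double the counts of any wild type library. *fat-4*, the delta-5 desaturase, averaged 8552 ± 1048 against 4591 ± 364 (0.89), *fat-1*, the omega-3 desaturase, 14068 ± 547 against 8158 ± 666 (0.79), and *fat-6*, a stearoyl-CoA desaturase, 7022 ± 152.6 against 4756 ± 116 (0.56). All 4 lie on chromosome IV.

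In fatty acid synthesis 1 of 7 genes was higher and 1 lower. *pod-2*, acetyl-CoA carboxylase, was at 13004 to 16281 against 11345 to 13401, groups that overlapped (log2 fold change 0.29, limma adjusted p = 8.1e-04, and 0.012 with only these 8 libraries in the fit). *acly-2*, an ATP citrate lyase, was at 12273 to 13198 against 14620.2 to 15377 (-0.23). Among 9 storage and lipolysis genes 1 was higher and 4 lower, with *plin-1*, the lipid droplet perilipin, at 13637 to 14758 against 12063 to 13187 (0.16, limma adjusted p = 4.0e-04) and *seip-1*, the droplet protein seipin, at 872 to 1005 against 1149 to 1236 (-0.34). Fatty acid breakdown was mixed, with 12 of 54 tested genes higher, 5 lower and a median of 0.08. Among lipid binding proteins 4 of 9 were higher and 1 lower: *lbp-2* averaged 6279 ± 189.999 against 3725 ± 212 (0.75) and *lbp-1* 697 ± 139.5 against 351 ± 34.2 (0.97). The lysosomal lipase gene *lipl-3* measured 102, 86.7, 124.05 and 58.2 against 17.8 to 26.3 (1.97), 1 of 2 higher among 6 tested of that family.

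Enzymes that break down amino acids were higher in part. Of 27 genes 13 were higher and 2 lower, with a median of 0.38 (0.28 to 0.49 over the alternative settings) and of -0.01 without auxin. Members of the tyrosine and tryptophan routes were among them. *hpd-1*, a dioxygenase of tyrosine breakdown, measured 4866, 3180.4, 4718 and 5595 in somatic AID and 1696, 1684, 1561 and 1726 in wild type, a log2 fold change of 1.43 (SE 0.12, limma adjusted p = 9.2e-09). The groups were far apart even at the lowest somatic AID library. *hgo-1*, homogentisate oxidase of the same route, averaged 1402 ± 84.4 against 820.4 ± 45.7 (0.77), *tdo-2*, tryptophan dioxygenase, 2172 ± 146 against 918 ± 76.2 (1.24), and *cbs-1*, cystathionine beta synthase, 668 ± 24.04 against 391 ± 31.2 (0.77).

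In gluconeogenesis and the glyoxylate cycle 4 of 10 tested genes were higher and 0 lower, with a median of 0.15. *icl-1*, the bifunctional glyoxylate cycle enzyme, was at 11311 to 14149 against 8216 to 11061 (log2 fold change 0.47), *pck-2*, a PEP carboxykinase, at 15308 to 18227 against 12774 to 14396 (0.29), and *tps-2*, a trehalose synthase, at 3033 to 3979 against 2162 to 2389.7 (0.59). No group overlapped for these 3 genes.

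Most lysosomal protease genes tested and a part of the saposin-like genes were higher, while autophagy genes split. Of 22 cathepsin genes tested of 28, 14 were higher and 1 lower, with a median of 0.60. The aspartyl protease genes *asp-6* (28618 to 42892 against 15616 to 22359), *asp-1* (21447 to 33714 against 11752 to 15994) and *asp-5* (20589 ± 3181 against 9166 ± 626) had log2 fold changes of 0.93, 0.97 and 1.16. *cpl-1*, a cathepsin L, averaged 23062 ± 1314 against 13344 ± 1319.6 (0.79) and *cpz-1*, a cathepsin Z, 5461 ± 562 against 2950.1 ± 297 (0.89). Saposin-like genes, which encode small lipid or membrane binding proteins with roles in defence, were higher for 9 of 19 tested and lower for 1, with a median of 0.68: *spp-2* measured 1213, 1187, 1206 and 1427 against 326 to 433 (1.71), and *spp-5* 10924 ± 563 against 4782 ± 429.7 (1.19). Many of these genes are intestinal, and the intestine markers moved with them: 5 of 11 were higher and 0 lower, and their summed counts were 43007 to 53258 against 28750 to 33840. That list holds *asp-1*, whose counts, given above, make up a large part of these sums. The sums are therefore not separate from the protease result, and the part of the intestine in it was not tested.

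The proton pump of the lysosome, the V-ATPase, had 8 of 20 genes higher and 2 lower, with a median of 0.12. Its genes went in both directions: *vha-5* averaged 1408 ± 101 against 919 ± 64.6 (log2 fold change 0.62) and *vha-7* 5482 ± 62.9 against 6654 ± 345 (-0.28). Of 26 autophagy genes 8 were higher and 7 lower. *epg-2*, a cargo adaptor for aggregates in embryos, measured 1759, 1409, 1567 and 1955 against 605, 615, 562 and 564 (1.501, SE 0.15, limma adjusted p = 9.9e-08), and *lgg-1*, the Atg8 protein of the autophagosome, 8368 to 8737 against 6439 to 6847 (0.36). *atg-18* was lower, at 4722 to 5131 against 5586 to 5840.2 (-0.22).

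Many neuropeptide genes were higher, and 0 were lower. These peptides are released from dense core vesicles of neurons and some other cells. Of 30 FMRFamide-like peptide genes tested of 31, 25 were higher and 0 lower, and all 30 had log2 fold changes between 0.44 and 1.09, with a median of 0.71. Per library, that median lay 0.66 to 0.80 above the wild type mean in somatic AID and within -0.05 to 0.06 in wild type. *flp-5* measured 109, 111, 95.7 and 121 against 62.7, 51.9, 52.2 and 50.8 (0.99, SE 0.12, limma adjusted p = 1.1e-06) and *flp-6* 415, 413, 488 and 416 against 254, 300.4, 251 and 247 (0.72). Of 58 neuropeptide-like genes tested of 71, 26 were higher and 0 lower, with a median of 0.63 and a lowest log2 fold change of -0.92, and 4 of 16 insulin-like peptide genes tested were higher and 0 lower. *nlp-40*, made in the intestine, averaged 2165.97 ± 179 against 1530.1 ± 90.7 (0.50) and *ins-7* 101 ± 32.5 against 39.5 ± 6.50 (1.28).

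Genes that process and release these peptides were higher in part, with 8 of 18 higher, 1 lower and a median of 0.44 (0.12 after quantile normalization). The prohormone convertase gene *egl-3* averaged 1915 ± 78.5 against 1213 ± 41.8 (log2 fold change 0.66), the carboxypeptidase gene *egl-21* 1133 ± 34.03 against 757 ± 49.99 (0.58), and *ida-1*, a dense core vesicle protein, 775 ± 15.2 against 459 ± 27.5 (0.76). General neuron markers, which include these 3 genes, were higher for 6 of 20 tested and lower for 2, with a median of 0.40 (0.07 after quantile normalization). Per library that median lay 0.37 to 0.56 above the wild type mean in somatic AID and between -0.03 and 0.02 in wild type, without overlap, and its part in the rise of the peptide genes was not tested. The summed counts of the markers, in which abundant genes weigh most, overlapped between the groups, at 19554 to 20115 in somatic AID and 19559 to 20291 in wild type. Among neuronal genes of interest, *cat-4*, a biopterin enzyme of monoamine synthesis, averaged 923 ± 83.1 against 567 ± 54.2 (0.70), *cab-1*, a synaptic release gene, 1602 ± 13.04 against 1149 ± 30.3 (0.48) and *mec-12*, the touch neuron tubulin, 277 ± 37.3 against 177 ± 10.3 (0.63). *tom-1*, tomosyn, overlapped between the groups and did not pass the test (0.18, SE 0.11), nor did *frpr-5*, a peptide receptor gene (79.2 ± 2.96 against 53.2 ± 14.7, limma adjusted p = 0.032).

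Foregut and muscle genes were higher in part. *pha-4*, the FoxA transcription factor that specifies the pharynx, measured 274, 299, 251 and 362 normalized counts in somatic AID and 102, 67.3, 116.8 and 94.8 in wild type. The groups were well apart. The log2 fold change was 1.64 (SE 0.15, limma adjusted p = 3.5e-08), against 0.01 without auxin. The pharyngeal myosin genes *myo-2* (1094 ± 66.1 against 608 ± 82.2) and *myo-1* (827 ± 64.5 against 407 ± 74.5) were higher by 0.85 and 1.03. Of 9 pharynx markers tested 6 were higher and 0 lower, and their sums were 2900 to 3079 against 1477 to 1961. The 3 that were not called had log2 fold changes below 0, down to -1.04, and 1 marker was called lower without auxin. Of 16 body wall muscle markers 8 were higher and 3 lower, with sums of 56387 to 60087 against 41124 to 49281. *unc-54*, the main body wall myosin, averaged 19276 ± 390.1 against 13172 ± 1300.2 (0.55) and *hlh-1*, the MyoD factor, which embryos also express, 40.5 ± 5.57 against 10.3 ± 2.60 (1.89). *unc-112*, an integrin adhesion gene, was lower, at 1017 to 1155 against 1374 to 1412 (-0.38). The gut esterase gene *ges-1* overlapped between groups, at 516 to 659 against 499.7 to 640.2 (0.06, SE 0.10), while *elt-7*, a GATA factor of the intestine, averaged 163 ± 14.6 against 92.4 ± 3.54 (0.81).

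Most germline and oocyte markers were lower, by small amounts. Of 22 markers 15 were lower and 0 higher, with a median of -0.17 that stayed between -0.19 and -0.14 over the alternative settings, and their sums were 245724 to 261558 in somatic AID against 278633 to 282768 in wild type. *oma-2*, a zinc finger protein of oocyte maturation, measured 18204, 18749.5, 18693 and 17551 against 22798, 21923, 22258 and 22668, a log2 fold change of -0.29 (SE 0.02, limma adjusted p = 1.1e-09). No library came near the other group. *glp-1*, the Notch receptor of germline stem cells, averaged 11576 ± 709.6 against 13939 ± 103.9 (-0.27). Of 15 eggshell and oocyte surface genes 11 were lower and 2, *perm-2* and *perm-4*, higher. *egg-6* was at 17163 to 17850.1 against 22366 to 23140.3 (-0.37), *cbd-1*, a chitin binding protein of the eggshell, at 112781 to 121758 against 131580 to 138435 (-0.22, and 0.00 after quantile normalization), and the proteoglycan genes *cpg-1* and *cpg-2* were lower by 0.20 and 0.14. Together with *rme-2* and *atp-2*, a subunit of ATP synthase (38964 ± 1350.3 against 44498 ± 1104), these last 3 made up the 5 largest losses in counts.

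Mitosis genes were mostly lower, and DNA replication genes in part. Of 28 mitosis genes 23 were lower and 0 higher, with a median of -0.13, and of 29 DNA replication genes 12 (41.4%) were lower and 2 higher, with a median of -0.09. Among all tested genes with 1000 to 10000 normalized counts 42.3% were lower. The cyclin genes *cye-1* (4938 to 5122 against 6001 to 6226) and *cya-1* (2789 to 2904 against 3381 to 3585) had log2 fold changes of -0.28 and -0.30 without overlap. Dividing cells of an adult are found in the gonad and the embryos she carries, and the sums of germline markers moved with these lists, as given above, but their part in the result was not tested.

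**Figure D4:**
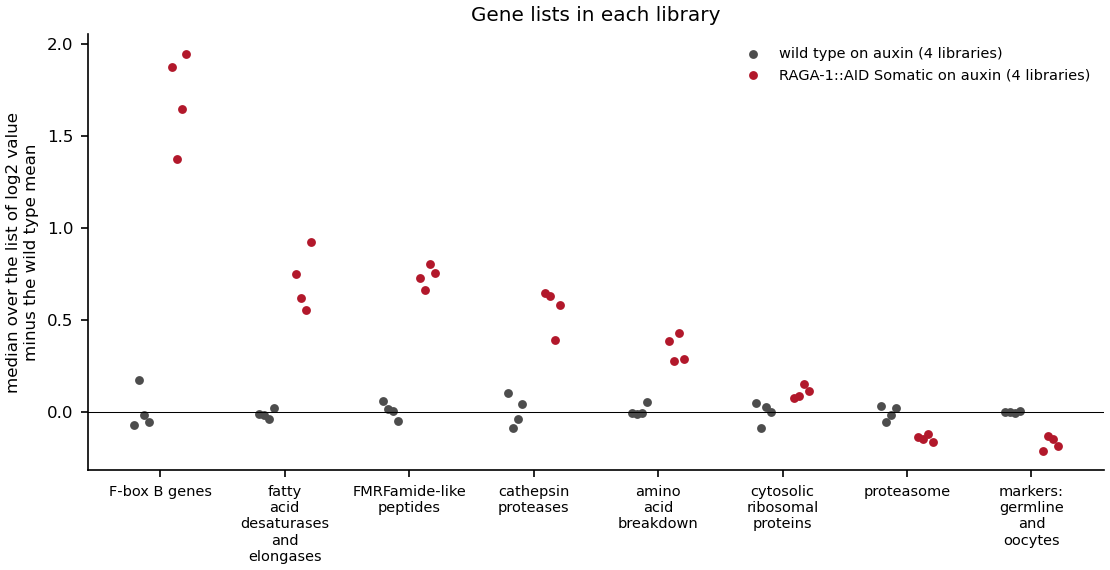
Median over the tested members of 8 gene lists of each library's log2 value minus the mean of the 4 wild type libraries, with 1 point for each library on auxin. F-box B genes lie at 1.37 to 1.95 in somatic AID (red) and between -0.07 and 0.18 in wild type (grey), the FMRFamide-like peptides at 0.66 to 0.80, and the proteasome and germline medians of all 4 somatic AID libraries lie below those of all 4 wild type libraries.

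Some linker histone and embryonic genes were higher while others of their class were not. Linker histones, which bind DNA between nucleosomes, split by gene: *his-24* measured 1735, 1739, 1698 and 2672 against 518, 605, 565 and 599 (log2 fold change 1.75, SE 0.19, limma adjusted p = 2.1e-07), *hil-3* 639, 538, 537 and 772 against 158 to 218 (1.74) and *hil-2* 1419.8 ± 142 against 843 ± 28.7 (0.75), while *hil-4* was at 10783 to 11579 against 12129.6 to 12725 (-0.16). Of the 9 genes 3 were higher and 2 lower, and the list median of 0.16 turned negative after quantile normalization and without somatic AID replicate 2. Genes named as zygotic transcripts that depend on SKN-1 were higher for 15 of 27 tested and lower for 1, with a median of 1.13. Scarce members of this list, and of the zygotic markers below, may have passed the filter through the group in which they are high. Summed over all 32 members, tested or not, the counts were 2007 to 2816 in somatic AID and 1156 to 1367 in wild type. *sdz-30* averaged 185 ± 43.9 against 42.1 ± 6.51 (2.09) and *sdz-25* 199.8 ± 44.2 against 59.5 ± 13.02 (1.73). *sdz-1* was almost absent from wild type, with 3 reads over 4 libraries against 58, a ratio of 27.5 (95% exact interval 8.96 to 137, counting error only). Of the general markers of zygotic transcription 3 of 11 tested were higher, with *ceh-51*, a homeobox factor of early mesoderm, at 36.8 to 45.8 against 2.54 to 5.42, and 1 was lower, and their summed counts were 4165 to 4318 against 4695 to 4765.

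The machinery of protein synthesis moved little and in more than one direction. Cytosolic ribosomal protein genes were higher for 35 of 80 tested and lower for 0, with a median of 0.10 (0.07 to 0.15 over the alternative settings), next to a median of 0.07 without auxin where 0 were called. *rps-6* measured 20411 to 21759 against 16967 to 19043 (log2 fold change 0.20) and *rpl-25.1*, a paralog, 1569 to 1674 against 1150.4 to 1389 (0.38). Ribosome biogenesis was lower for 11 of 29 genes (37.9%) and higher for 0, with a median of -0.12, as in *nol-10* (3625 ± 92.6 against 4253 ± 74.9, -0.23). Aminoacyl tRNA synthetase genes were lower for 10 of 20 (50%) and higher for 1, with a median of -0.11, as in *nars-1* (4906 ± 177 against 5701 ± 67.8, -0.22). Among all tested genes with 1000 to 10000 normalized counts, the range of *nol-10* and *nars-1*, 42.3% were lower. Of 40 translation factors 3 were higher and 6 lower. Of these, *iff-2*, an eIF5A gene, averaged 1734 ± 68.6 against 1297 ± 40.4 (0.42). Mitochondrial ribosomal proteins (1 of 70 higher, 8 lower, median -0.04) and oxidative phosphorylation genes (4 of 43 tested higher, 10 lower, median -0.02) had few calls in either direction. *hsp-6*, the mitochondrial HSP70, measured 13894, 16699, 14884 and 12971 against 18079 to 20864 (-0.42, SE 0.08, limma adjusted p = 2.0e-04), and splicing factor genes were called for 3 of 34.

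Genes facing the outside, in detoxification, defence and the cuticle, were higher in some families. UDP-glucuronosyltransferases, which attach sugar to small hydrophobic molecules, were higher for 20 of 57 tested and lower for 1, with a median of 0.45 (0.18 after quantile normalization). Beside *ugt-18*, *ugt-25* averaged 1296 ± 202 against 512 ± 50.6 (log2 fold change 1.33). Cytochrome P450 genes were higher for 6 of 58 and lower for 8, with a median of 0.25 that turned to -0.05 after quantile normalization, and glutathione S-transferases for 4 and 2 of 35, among them *gst-36* (453 ± 22.99 against 304 ± 19.5, 0.57). The superoxide dismutase gene *sod-3*, a known target of the factor DAF-16, measured 12.9, 12.2, 20.0 and 12.5 against 22.02, 22.4, 33.1 and 34.7 (-0.92, SE 0.25, limma adjusted p = 0.0054). The groups nearly touched, and leaving out any of 5 libraries took the adjusted p above 0.01 (up to 0.022).

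Of 86 C-type lectin genes tested of 237, 15 were higher and 4 lower, including *clec-196* and *clec-190* in opposite directions. Lysozymes were higher for 3 of 9 tested, with *lys-8* at 3558 to 4902 against 2906 to 3103 (log2 fold change 0.53). Transthyretin-related genes, a secreted family of nematodes, were higher for 23 of 46 tested and lower for 2, with a median of 0.41, as in *ttr-5* (566 ± 47.8 against 283 ± 3.44, 0.99). Cuticle collagens were higher for 18 of 74 tested and lower for 3, *col-124* among the higher (4641 ± 195.9 against 2017 ± 216, 1.21), with a median of 0.14 that turned to -0.04 after quantile normalization. Hypodermis markers were higher for 3 of 8 tested and lower for 1, and their sums were 17149 to 18579 against 11210 to 15025. The marker list itself holds cuticle collagen genes and shares members with the collagen list, so the lists are not separate. The part of the hypodermis in the collagen result was not tested. Heat shock genes were called higher for 2 and lower for 4 of 20, oxidant defence genes for 1 each of 10, nuclear hormone receptors for 13 and 14 of 170, and GATA factors for 2 and 1 of 7.

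A small number of genes already separated the strains without auxin. There 28 genes were called (0.213% of those tested), 3 higher and 25 lower (0.19%), in libraries that share none with the comparison on auxin. Of the 28, 16 (57.1%) were called on auxin in the same direction, 3 higher and 13 lower, which is 0.355% of the 4505 genes called on auxin, and 0 were called in the other direction. The 3 higher genes were *ZK938.3*, *eyg-1* and *unc-18*. *ZK938.3* (chromosome II, 9831521 to 9833955 on WBcel235) measured 63.8, 66.4, 76.7 and 90.1 on auxin, where wild type had 2.54, 0, 0.828 and 0, and 47.1 to 54.98 against 0 to 2.1 without auxin. Its ratio on auxin was 89.3 (251 reads against 4, 95% exact interval 34.5 to 330, counting error only). *eyg-1*, a PAX family gene close to it on the same strand (9826448 to 9827952), measured 47.4 to 56.8 against 0 to 1.69, a ratio of 51.8 (21.8 to 162). *unc-18*, the Munc18 protein of synaptic release (chromosome X, 7682896 to 7686037), measured 3350, 5120.1, 4308 and 3976 against 979 to 1049, a log2 fold change of 2.02 on auxin and 2.16 without. For these 3 genes the difference between the gaps on auxin and without it was 0.90, 0.53 and -0.14 and did not pass the test (limma interaction, adjusted p = 0.32, 0.49 and 0.52).

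Among the lower genes, *unc-119* (chromosome III, 10902641 to 10908935), a neuronal trafficking gene whose relative from another species marks the TIR1 transgene, measured 204 to 223 against 301 to 325 on auxin and 156 to 192 against 315 to 343 without, log2 fold changes of -0.57 and -0.87. On auxin and without it, *T20G5.8* had log2 fold changes of -1.70 and -1.08 and *F35E8.13* of -0.98 and -1.76. The nspc genes, near-identical copies on chromosome X, were lower in both: 14 of 15 tested were called without auxin, with a median of -1.06, and 8 on auxin, with a median of -0.55. *nspc-2* measured 208, 175, 178 and 207 against 449 to 487 on auxin, and *nspc-1* and *nspc-4* had log2 fold changes of -1.22 and -1.09 on auxin and -1.06 and -1.16 without.

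**Figure D5:**
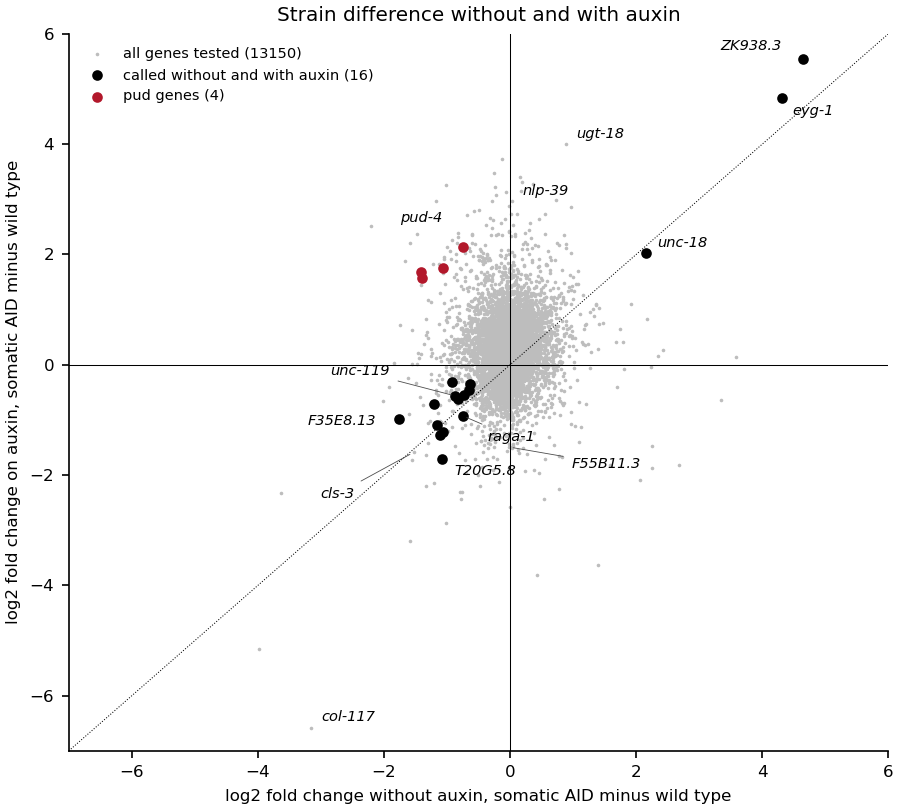
Log2 fold change of RAGA-1::AID Somatic minus wild type without auxin (x axis) and on auxin (y axis) for the 13150 genes tested, with the 16 genes called in both in black, the 4 pud genes in red and equal values on the dotted line. ZK938.3, eyg-1 and unc-18 lie at the upper right and raga-1, unc-119 and T20G5.8 at the lower left. nlp-39 and F55B11.3 lie close to the vertical line, and ugt-18 lies to the right of it.

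Most genes called on auxin were not called without it, and for many the strain difference itself differed. The strain difference on auxin differed from that without auxin in 2206 genes (16.8% of those tested), among them 2131 of the 4505 called (47.3%). Among these were pud genes, named for proteins that accumulate in an insulin receptor mutant. All 4 tested of 5 were higher on auxin, with a median of 1.71, while without auxin their median was -1.23 and 0 were called. *pud-4* measured 2223, 1944, 2351 and 2485 against 421 to 659 on auxin and 231 to 341 against 444 to 575 without, a log2 fold change of 2.13 (SE 0.15, limma adjusted p = 5.9e-10) against -0.75 (limma adjusted p = 0.019), and an interaction of 2.88 (limma adjusted p = 7.6e-09). *pud-1.2*, *pud-2.2* and *pud-3*, close copies of each other, had log2 fold changes of 1.68, 1.74 and 1.56 on auxin. In the other direction, *cdr-4*, a cadmium responsive gene, was at 269 to 488 against 630.1 to 981 on auxin (-1.04) with a difference of 0.27 without, *T05B11.4* at 94.8 to 106 against 169.7 to 191 (-0.87, and 0.30 without) and *K08H2.10* at 62.8 to 135 against 161 to 191 (-1.01, and 0.16 without).

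Many genes also differed between the somatic and the neuronal depletion of RAGA-1. Somatic AID on auxin differed from RAGA-1::AID Neuronal on auxin, which carries the same *raga-1* allele with TIR1 driven in neurons, in 3054 genes (23.2% of those tested), 1243 higher (9.45%) and 1811 lower (13.8%). These libraries include those of the comparison with wild type, so the values are given side by side and not as an overlap. F-box B genes were higher than in the neuronal strain for 33 of 87, with a median of 1.04, FMRFamide-like peptides for 23 of 30, with a median of 0.81, cytosolic ribosomal proteins for 25 of 80, with a median of 0.11, and amino acid breakdown for 12 of 27, with a median of 0.32 and 1 lower. *pha-4* averaged 137 in the neuronal strain against 297 ± 47.8 in the somatic one (log2 fold change 1.10, limma adjusted p = 1.5e-05) and *fat-2* 10543 against 22204 ± 1335 (1.07). For *raga-1*, the same allele in both, the difference was -0.12 and did not pass the test (limma adjusted p = 0.037).

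Single genes differed in both directions between the AID strains. Examples of genes lower in somatic than in neuronal AID were *lea-1* and *ges-1*, and *mec-12* was an example of a higher one. *lea-1*, which encodes a LEA protein, a class known for protection from drying, averaged 52103 normalized counts in the neuronal strain and 23385 ± 3955 in the somatic one (log2 fold change -1.17, limma adjusted p = 5.9e-07), and its difference of 0.32 from wild type (18737 ± 3264) overlapped and did not pass the test (limma adjusted p = 0.039). *ges-1* averaged 912 in the neuronal strain against 591 ± 58.6 (-0.62), and *mec-12* 130.0 against 277 ± 37.3 (1.08).

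Higher genes were more frequent on chromosome X and lower genes on chromosomes I and III. On chromosome X 21.04% of 1873 tested genes were higher and 14.9% lower, with a median log2 fold change of 0.19, and on chromosome V 16.7% and 14.2%, with a median of 0.12. On chromosomes I and III 10.8% each were higher and 25.6% and 24.4% lower, with medians of -0.05 and -0.04, and chromosomes II and IV lay between, both with a median of 0.01. Without auxin the medians of these 6 chromosomes were between -0.04 and 0.01. Germline genes are sparse on the worm X chromosome, and the germline markers were lower here as given above. Their part in this pattern was not tested.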

How the data were processed

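Polyadenylated RNA of whole worms was sequenced in 24 libraries, 6 groups of 4, of which the 2 groups on 0.15 mM auxin described here hold 8. Per the submitters' processing notes and the methods, read quality was examined by the authors in FastQC 0.11.5, MultiQC and STAR 2.7.0. Salmon 1.4.0 quantified WBcel235 transcripts, which were brought to gene level and normalized with R 4.1.2 and DESeq2 1.34.0. The deposited values are therefore a signal per gene, counts that the authors divided by a size factor for each library. The sources used here do not give Salmon's strand options. Overlapping and antisense genes, and near-identical copies such as nspc, pud, vit, fbxb, sdz and collagen genes, are uncertain. Dividing each of the 24 libraries by its smallest nonzero value gave whole numbers for 100% of values (within 0.01), taken here as reads, 16982857 to 41671106 per library. In somatic AID auxin replicate 1 that step is so near 1 that whole multiples cannot be told from rounding. Intervals on single ratios cover counting error only.

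limma 3.58.1 (R 4.3.3, intensity trend) was fitted to log2(normalized count + 1) with 6 group means, and the spread was estimated from all 24 libraries together. The 13150 genes with 10 or more normalized counts in 4 or more libraries were tested, and a call needed an adjusted p no higher than 0.01 (Benjamini-Hochberg, over all of them). The same fit gave the strain difference without auxin, the interaction and the difference from the neuronal strain. Of 21982 genes, 19793 were named by the annotation table, 1919 by sequence name, and 270 kept their ID, and 0 columns were without a sample.

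Lists are described by counts and medians, with no test of the list. The libraries follow from the labels, but the comparison, the genes described and the 56 lists were chosen with earlier results of these data known. Named genes are those of the study's RNA-seq text plus *rsks-1*, *let-363* and *raga-1*, then the 15 strongest rises and 15 strongest falls (a mean of 50 or more and no overlap), the 10 largest gains and 5 largest losses in counts, members among the 4 of smallest adjusted p of each list, up to 12 genes called in the same direction with and without auxin, the 6 largest interactions each way and 4 strain markers. Of these, 149 are described, and gnsl-1, which no symbol of the table matched, has no value here. Counts were simulated for 13010 genes of this comparison, with 49 or 50 genes changed at each fold and 12812 unchanged. There limma called 40.8%, 46%, 63.3% and 90.0% of genes changed by 1.25, 1.5, 2 and 4-fold, and 0 of the unchanged genes. The data hold far more differences, with 4505 calls, so these shares do not carry over to them. Alternatives were pseudocounts of 0.5 and 4, other filters, TMM, quantile normalization, the 8 libraries alone, a replicate block, edgeR 4.0.16 and DESeq2 1.42.0 on recovered reads, reads thinned to one depth, other thresholds, each library left out, and pairs of replicates. Figures were drawn with Python 3.11.15 and matplotlib 3.10.9.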

Additional observations from a re-analysis of the deposited data

Results flagged for a closer look

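Among the 149 genes named, each with 2 groups of 4 libraries on auxin, 17 of 298 groups held 1 library far from the other 3 by Dixon's test at the 95% level. Chance gives about 1 in 20 groups, so this number of groups is near what chance alone would give. In somatic AID replicate 4, *clec-196* stood at 177 normalized counts (others 99.6 to 106), *his-24* at 2672 (1698 to 1739), *spp-2* at 1427 (1187 to 1213), *clec-190* at 449 (641 to 672) and *M199.9* at 18.03 (36.6 to 39.8). Each of these 5 genes was further from wild type in that library than in the other 3. In other somatic AID libraries, *cpl-1* stood at 21110.4 (23454 to 23853) in replicate 2, and *flp-6* at 488 (413 to 416) and *sod-3* at 19.97 (12.2 to 12.9) in replicate 3.

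In wild type replicate 1, *frpr-5* stood at 31.3 (others 58.8 to 63.5), *iff-2* at 1358 (1275 to 1280.1), *flp-5* at 62.7 (50.8 to 52.2) and *nspc-4* at 313 (364 to 373). In wild type replicate 2, *fat-2* stood at 9777 (8043 to 8239), *lbp-2* at 3410.0 (3803 to 3861) and *flp-6* at 300.4 (247 to 254). In wild type replicate 3, *ida-1* stood at 500.1 (443 to 448) and *sdz-1* at 0 (0.774 to 0.847). All these genes but *frpr-5* passed the test, and none but *sod-3* lost its call when 1 library was left out.

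The strain difference itself differed between auxin and no auxin for 78.5% of the 149 genes named (limma interaction, adjusted p of 0.01 or less). The share was 16.8% of all genes tested and 47.3% of those called on auxin. Many named genes were chosen for their difference on auxin or their interaction, which raises their share by construction. The largest such differences by the rule for named genes, on the log2 scale and as the gap on auxin minus the gap without, were 3.12 for *ugt-18*, 3.09 for *pud-1.2*, 2.97 for *pud-3*, 2.96 for *F44F1.6*, 2.94 for *nlp-39* and 2.88 for *pud-4*. Downward they were -1.47 for *F55B11.3*, -1.40 for *T12B5.15*, -1.31 for *cdr-4*, -1.26 for *M199.9*, -1.18 for *T05B11.4* and -1.17 for *K08H2.10*. For *pud-1.2*, *pud-3*, *pud-4*, *F44F1.6*, *cdr-4*, *T05B11.4* and *K08H2.10* the gap without auxin had the opposite sign, and the gap without auxin passed the test for 0 of the 12 genes.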

How the results depend on the processing

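The count of 4505 genes (1964 higher, 2541 lower) was within 1.5 times of itself under 21 of the 24 alternatives, all libraries left out in turn included (3766 to 4355 genes, 1568 to 1870 higher and 2175 to 2485 lower). It moved further with replicates 1 and 4 alone (2811, as 1204 and 1607), with replicates 2 and 3 alone (1440, as 651 and 789) and with a log2 fold change of at least 1 (570, as 506 and 64), and at an adjusted p of 0.05 the higher genes came to 2950. Of the 4505 genes, 0 changed sign under any of these but quantile normalization, where 3 (named below) turned or came to 0 and 3065 stayed called. Replicates were collected on separate days, but whether equal numbers in the 2 strains stand for 1 day is not given in the sources used here. Over all tested genes, deviations of same-numbered libraries correlated at 0.15, -0.07, 0.09 and 0.08, so the numbers were not taken as pairs, although single genes followed the number: *asp-14* was lowest in replicate 1 in somatic AID and wild type on auxin (1943 and 269 normalized counts) and without (233 and 264). A replicate block gave 5192 calls over 24 libraries, and over the 8 libraries 3029 with 1584 lower, and it added a call of *lea-1* over 24 libraries. Somatic AID replicate 2 correlated best with wild type replicate 3, not with its own number.

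Of the 149 genes named 143 were called, 131 of them under every alternative other than the pairs of replicates and 107 under those too. Quantile normalization, which equalises the top ranks by construction, turned *vit-6* to -0.071, *vit-5* to -0.13 and *cbd-1* to 0.00, and it turned *rsks-1* to 0.013 and *ges-1* to -0.0054. *ges-1* was at -0.059 with replicates 2 and 3 alone, and *let-363* at -0.046 with replicates 1 and 4 alone and from -0.012 to 0.035 with 1 library left out. The cause of these turns in genes that were not called was not tested. Calls lost elsewhere included *col-117* (edgeR adjusted p = 0.015), *vit-2* (limma adjusted p = 0.46 after quantile normalization) and *sod-3*, whose limma adjusted p rose to between 0.016 and 0.022 without any 1 of 5 libraries. At equal reads edgeR called 3842 genes (1876 higher, 1966 lower), against 4511 (2232 and 2279) at full depth.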

Other observations

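Families of genes that share a name and have 10 or more tested members (125 families) were read through after their values were seen, so the following counts are descriptions and carry no test. Histone genes (his) were higher for 17 of 43 and lower for 1, with a median log2 fold change of 0.84, and many of these are near-identical copies. Chitinase-like genes (chil) were higher for 4 of 10 and lower for 0, with a median of 0.75, and bZIP factors (zip) for 6 of 11 and 1, with a median of 0.65. Touch neuron genes (mec) were higher for 5 of 15 and lower for 0 (0.63), and two-pore potassium channels (twk) for 7 of 31 and 1 (0.44).

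Other families held more lower than higher genes. Secretion genes (sec) were lower for 14 of 19 and higher for 0, with a median of -0.14, N-glycosylation genes (algn) for 9 of 13 and 0 (-0.17), SET domain genes (set) for 15 of 28 and 0 (-0.17) and WD repeat genes (wdr) for 9 of 13 and 0 (-0.16). Cyclin-dependent kinases (cdk) were lower for 8 of 11 and higher for 1 (-0.12), and RNA polymerase II subunits (rpb) for 7 of 11 and 0 (-0.12).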
